A study of Mus musculus with 6 samples.

Results

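Channels, pumps and transporters of salt and water in the embryonic lung were compared between wild type and *Yap* mutant mice at 12.5 *dpc* (days post coitus). They are 9 genes of the 24402 loci in the authors' table, taken by symbol: the chloride channels *Cftr* and *Ano1*, the cotransporter *Slc12a2*, the sodium channel subunits *Scnn1a*, *Scnn1b* and *Scnn1g*, the sodium pump subunit *Atp1b1*, and the water channels *Aqp1* and *Aqp5*. They were grouped by function, and the rule that finds them in the table reads no level or difference. Whole lungs of the C57BL/6 strain were profiled by RNA-Seq in 6 libraries, 3 from embryos labelled wild type (control) and 3 from *Yap f/f; Shh Cre/+* embryos (*Yap* mutant). The *Shh Cre* allele expresses Cre recombinase in the lung epithelium, so the mesenchyme, vessels and mesothelium of a mutant lung keep *Yap*. The mutants carry 1 *Shh Cre* allele that wild type embryos lack, and the presence of that allele and the deletion of *Yap* cannot be told apart. RNA of Y-linked genes was nearly absent from the control pool but present in the mutant pool. Embryonic sex therefore cannot be told apart from genotype either. How many embryos went into each library is not given in the sources used here.

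Before birth the lung is filled with liquid that its own epithelium secretes, and the pressure of that liquid helps the airways to grow. In the usual scheme, the sodium pump keeps sodium low inside the epithelial cell, SLC12A2 on the basolateral side brings chloride in with sodium and potassium, and chloride leaves through apical channels such as CFTR and ANO1, with sodium and water following. Around birth the direction turns to absorption, for which the epithelial sodium channel (ENaC) of the apical membrane and the sodium pump are needed, and aquaporins let water cross the membranes.

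The authors summarised the libraries of each genotype into 1 value per locus, read here as FPKM (fragments scaled to transcript length and to library size). With 1 value per genotype the spread between libraries and the depth of each library could not be computed, so no test was run here, and the p-values that the authors listed beside these values were not used. Each comparison therefore describes the libraries as they were pooled. A locus was counted as higher or lower when the genotypes differed by at least 1.5-fold on the log2(FPKM + 0.1) scale, which is 0.58 on that scale, and the mean of the 2 genotypes was at least 1 FPKM. Of 12716 loci with that mean, 420 (3.30%) had the lower value in mutant lungs and 565 (4.44%) the higher. These shares are the background for each count of a list given below. Among the 9 genes, 5 reached that mean, of which *Cftr* and *Ano1* (2 genes) were lower, *Atp1b1* (1 gene) was higher, and *Slc12a2* and *Aqp1* (2 genes) were neither. The other 4, the ENaC subunits and *Aqp5*, had a mean under 1 FPKM and were not counted. The log2 differences of the 5 counted genes had a median of 0.15, against -0.01 over all 12716 loci.

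**Figure D1:**
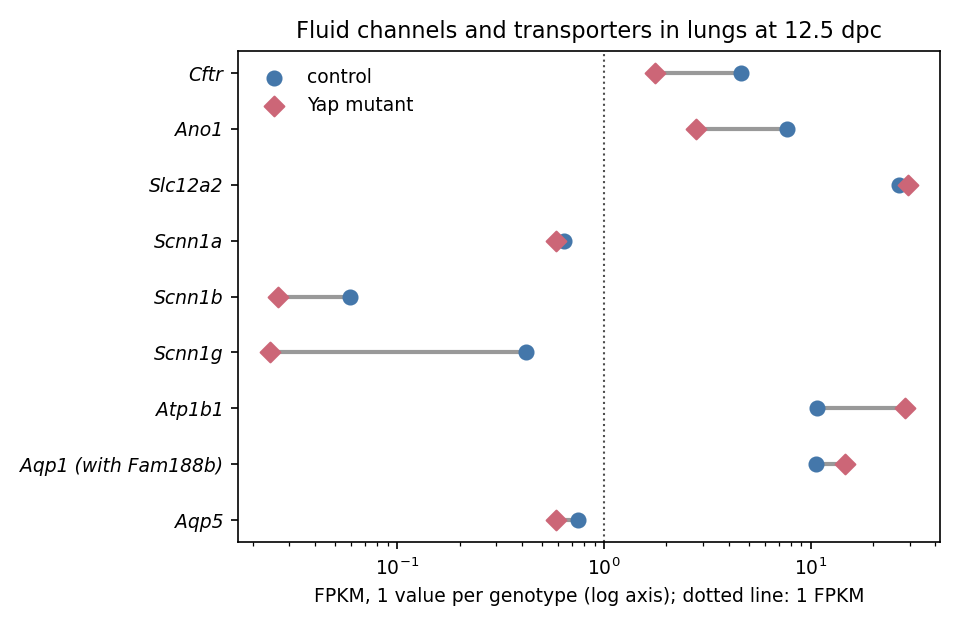
Level of the 9 genes in FPKM on a log axis, with 1 value per genotype (circle, control; diamond, *Yap* mutant) and no error bars because no values per library were used. *Cftr* and *Ano1* lie to the left in the mutant, *Atp1b1* lies to the right, and the ENaC subunits and *Aqp5* lie left of the dotted line at 1 FPKM in both genotypes.

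Control lungs had their highest level at *Slc12a2*, with 26.6 FPKM. *Atp1b1* (10.7 FPKM) and the locus of *Aqp1* (10.6 FPKM) came next, followed by *Ano1* (7.68 FPKM) and *Cftr* (4.60 FPKM). Below 1 FPKM the order was *Aqp5* (0.748 FPKM), *Scnn1a* (0.639 FPKM), *Scnn1g* (0.421 FPKM) and *Scnn1b* (0.0592 FPKM). Neighbours in this order cannot be ranked firmly without values per library. The level of *Slc12a2* was at least that of 72.6% of the 12716 loci and the level of *Cftr* at least that of 23.8%.

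The 2 chloride channels of the apical membrane were both lower in *Yap* mutant lungs. *Cftr*, the cAMP-regulated chloride channel that is defective in cystic fibrosis, had 4.60 FPKM in control and 1.76 FPKM in mutant lungs, a log2 difference of -1.34 (2.53-fold lower). A log2 difference as low as this was found at 87 of the 12716 loci (0.684%), *Cftr* included. *Ano1*, a chloride channel opened by calcium, had 7.68 FPKM in control and 2.77 FPKM in mutant lungs, a log2 difference of -1.44 (2.71-fold lower), and 79 loci (0.621%) were as low. Low levels are more often past 1.5-fold: 7.50% of the 3172 loci with a mean of 1 to 5 FPKM, the range of *Cftr*, were lower, against 2.48% of the 5004 loci with a mean of 5 to 20 FPKM, the range of *Ano1*. The level of *Ano1* was 1.67 times that of *Cftr* in control lungs and 1.57 times in mutant lungs, a similar relation in both genotypes. *Cftr* lies on chromosome 6 from 18170386 to 18322769 (plus strand) and *Ano1* on chromosome 7 from 144588549 to 144738592 (minus strand), in coordinates of the mm10 build that span the genes with their exons and introns.

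The bases directly upstream of the RefSeq starts of *Cftr* and *Ano1* are printed because these are the 2 genes that were lower together. Both are the RefSeq promoter windows of GRCm38.p6 (the assembly behind mm10), 250 bases each, 5′ to 3′ on the strand of the gene, at chr6:18170437-18170686 (plus strand) for *Cftr* and at chr7:144738574-144738823 (minus strand) for *Ano1*. Other models place these starts differently, since the deposited locus of *Cftr* begins upstream of its window, and GENCODE M21 extends *Ano1* to 144751974, so that the window of *Ano1* lies inside that gene model. Capitals mark the GC box GGGCGG or its reverse complement.
Cftr: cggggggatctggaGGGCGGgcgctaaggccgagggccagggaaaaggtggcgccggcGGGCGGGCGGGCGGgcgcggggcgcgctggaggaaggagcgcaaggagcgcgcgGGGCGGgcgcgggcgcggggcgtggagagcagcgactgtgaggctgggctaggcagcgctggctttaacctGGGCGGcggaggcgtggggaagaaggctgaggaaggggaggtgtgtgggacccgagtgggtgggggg
Ano1: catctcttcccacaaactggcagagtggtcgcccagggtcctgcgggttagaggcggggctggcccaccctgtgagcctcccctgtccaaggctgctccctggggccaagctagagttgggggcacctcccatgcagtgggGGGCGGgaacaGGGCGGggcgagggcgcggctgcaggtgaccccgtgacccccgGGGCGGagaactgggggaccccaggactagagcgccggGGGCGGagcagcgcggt
Of the 9 genes, 7 were searched in such windows for 3 motifs on both strands. The GC box was found in all 7 windows, 6 times in that of *Cftr* (overlapping matches counted) and 4 times in that of *Ano1*, and in 32.9% of 27025 mouse promoter windows of the same length. The core of the binding motif of TEAD, the DNA-binding partner of YAP, was searched as GGAATG and was found in 0 of the 7 windows and in 12.6% of all windows. The TATA box, searched as TATAAA, was likewise found in 0 of the 7 and in 13.0% of all. The window of *Cftr* held 76.4% G and C, against a median of 52% over all windows, and 2.86% of windows were at least as rich. That of *Ano1* held 72%. These are exact matches of letters, and no factor was measured at these sites. Variant forms of the motifs and bases outside the 250 were not searched, so a motif not found here may still be present.

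In whole-lung RNA, the gene of the cotransporter that loads the secreting cell with chloride showed no such difference. *Slc12a2*, which encodes NKCC1 and lies on chromosome 18 from 57878611 to 57946821 (plus strand), had 26.6 FPKM in control and 29.4 FPKM in mutant lungs, a log2 difference of 0.15. Its level was 5.78 times that of *Cftr* in control lungs and 16.7 times in mutant lungs, and 3.46 and 10.6 times that of *Ano1*. Of the summed FPKM of these 3 genes, which was 38.9 in control and 34.0 in mutant lungs, *Slc12a2* made up 68.4% in control and 86.7% in mutant lungs. The share of *Cftr* was 11.8% in control and 5.18% in mutant lungs, and that of *Ano1* was 19.8% and 8.15%. These are shares of whole-lung RNA and not of the RNA of the secreting cell. The cell types that the RNA of *Slc12a2* came from were not tested.

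Other genes of anion transport lay within 1.5-fold. Of 11 further anion channels and bicarbonate or chloride exchangers, 10 had a mean of at least 1 FPKM, and 0 were past 1.5-fold in either direction, with a median log2 difference of 0.07. *Ano6*, a lipid scramblase of the same family as *Ano1*, had 21.2 FPKM in control and 21.3 FPKM in mutant lungs. *Slc4a2*, an anion exchanger, had 21.1 and 20.8 FPKM. The difference nearest to the threshold was that of *Slc4a4*, a sodium bicarbonate cotransporter, with 3.97 FPKM in control and 5.72 FPKM in mutant lungs (log2 difference 0.52), which was named after its values were seen. Among 12 cation-chloride cotransporters and the kinases that regulate them, 9 were counted, 0 were lower and 1 was higher, with a median of 0.14. That gene was *Wnk4*, a kinase of the WNK family that controls cation-chloride cotransport, with 2.69 FPKM in control and 4.27 FPKM in mutant lungs (log2 difference 0.65). The kinases with the highest means, *Wnk1* (28.8 and 36.5 FPKM in control and mutant) and *Stk39* (20.2 and 29.3 FPKM), had log2 differences of 0.34 and 0.53, under the threshold. STK39 (SPAK) is the kinase that phosphorylates and activates SLC12A2.

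All 3 ENaC subunits were under 1 FPKM in both genotypes. ENaC is assembled from an alpha, a beta and a gamma subunit, encoded by *Scnn1a*, *Scnn1b* and *Scnn1g*, and it is the rate-limiting entry for sodium in absorption. *Scnn1a* (chromosome 6 from 125321172 to 125344942, plus strand) had 0.639 FPKM in control and 0.584 FPKM in mutant lungs. *Scnn1b* (chromosome 7 from 121865038 to 121918728, plus strand) had 0.0592 and 0.0264 FPKM. *Scnn1g* (chromosome 7 from 121734507 to 121768477, plus strand) had 0.421 and 0.0242 FPKM. The subunits summed to 1.12 FPKM in control and 0.635 FPKM in mutant lungs, with *Scnn1g* making up 37.6% of the control sum and 3.81% of the mutant sum, and *Scnn1a* 57.1% and 92.0%. The log2 difference of *Scnn1g*, -2.07 with 0.1 FPKM added, rests on a control value under 1 FPKM and was not counted as lower.

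Most genes that act on ENaC had higher levels than the channel itself. Of 10 regulators, 8 reached a mean of 1 FPKM, of which 2 were lower and 1 was higher, and the median log2 difference was -0.18. *Prss8*, a membrane-anchored protease that cleaves and activates ENaC, had 13.2 FPKM in control and 7.36 FPKM in mutant lungs (log2 difference -0.83). *Hsd11b2*, which inactivates glucocorticoids so that aldosterone can act on its receptor, had 18.7 and 11.5 FPKM (-0.70). *Furin*, a protease of the secretory pathway that cleaves ENaC and many other proteins, was higher, with 22.1 and 36.3 FPKM (0.71). *Nedd4*, a ubiquitin ligase of the family that removes ENaC from the membrane, had the highest mean of the list, with 525.1 FPKM in control and 521.3 FPKM in mutant lungs. *Tmprss4*, a membrane protease that can also cleave ENaC, was listed at 0.0539 FPKM in control and 1.62 FPKM in mutant lungs, a mean just under 1 FPKM, and was named after its values were seen.

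The sodium pump gene differed in the other direction from the chloride channels. *Atp1b1* encodes the beta-1 subunit of Na,K-ATPase, which carries the pump to the basolateral membrane and also joins neighbouring cells. Its level was 10.7 FPKM in control lungs and 28.5 FPKM in the mutant, a log2 difference of 1.40, and 164 of the 12716 loci (1.29%) were as high. Among the 5004 loci with a mean of 5 to 20 FPKM, 3.02% were higher. The deposited locus of *Atp1b1* spans chromosome 1 from 164307595 to 164458355, whereas the gene itself lies from 164437109 to 164458355 (minus strand) in GENCODE M21. The rest of that locus is *Nme7*, which runs on the plus strand from 164304121 to 164437725, overlaps the end of *Atp1b1*, and is listed with the same locus. *Nme7* had 19.7 FPKM in control and 20.8 FPKM in mutant lungs (log2 difference 0.08). Whether strand was used in counting is not given in the sources used here, so how reads of the shared stretch were assigned is unknown.

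The RefSeq promoter window of *Atp1b1*, the gene that was higher, is printed for comparison with the windows of the chloride channels. It covers 250 bases upstream of the start at chr1:164458356-164458605 (minus strand, GRCm38.p6), written 5′ to 3′ with GC boxes (GGGCGG or its reverse complement) in capitals.
Atp1b1: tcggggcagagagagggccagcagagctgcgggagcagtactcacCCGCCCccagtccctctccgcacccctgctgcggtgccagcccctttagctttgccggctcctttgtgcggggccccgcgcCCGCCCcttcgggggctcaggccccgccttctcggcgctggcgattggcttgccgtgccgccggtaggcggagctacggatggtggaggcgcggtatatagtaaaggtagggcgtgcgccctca
It held 2 GC boxes and 70.4% G and C, also above the median of 52% over all windows.

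The summed whole-lung RNA of the beta subunits of the pump was made up differently in the genotypes. In control lungs *Atp1b3* gave 83.2% of the summed FPKM of the 3 beta subunits, *Atp1b1* 11.7% and *Atp1b2* 5.09%. In mutant lungs the shares were 67.9%, 24.7% and 7.33%. The sum was 91.8 FPKM in control and 115.2 FPKM in mutant lungs. *Atp1b3* itself had 76.4 and 78.2 FPKM (log2 difference 0.03), so its lower share came with a similar level. The level of *Atp1b3* was 7.11 times that of *Atp1b1* in control and 2.75 times in mutant lungs. These shares are of RNA from all cell types and do not give the subunits of the pump in any cell. The part of heart RNA in them was not tested.

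**Figure D2:**
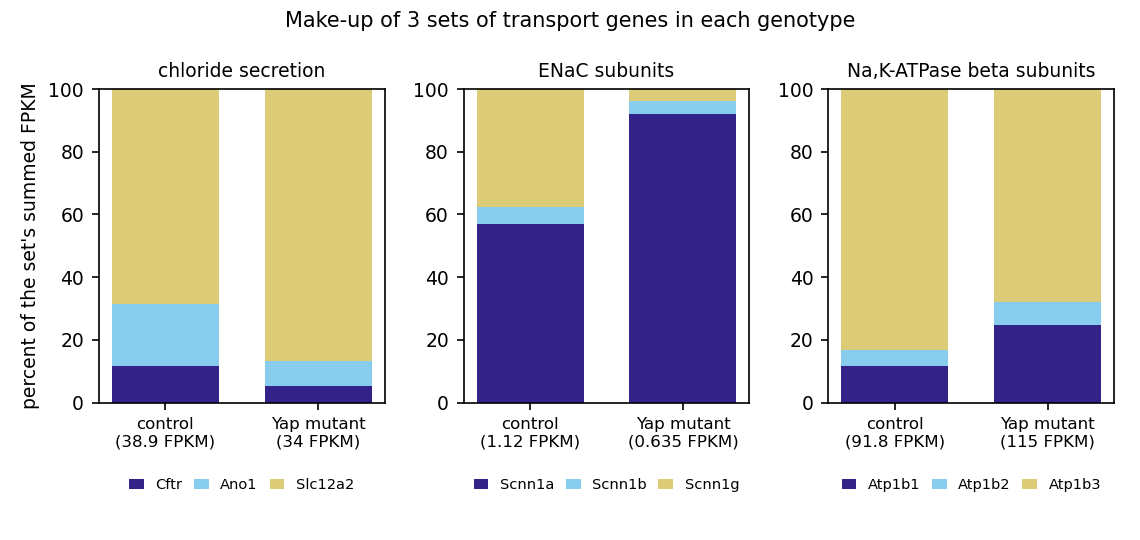
Share of each gene in the summed whole-lung FPKM of 3 sets, as percent on the vertical axis. There is 1 stacked bar per genotype, with the summed FPKM under it. *Slc12a2* takes 86.7% of the chloride secretion set in the mutant, *Scnn1a* takes 92.0% of the ENaC subunits, and *Atp1b1* takes 24.7% of the beta subunits against 11.7% in control.

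The list of other Na,K-ATPase subunits and FXYD proteins, small membrane proteins that tune the pump, had more loci higher than lower. Of 13 genes at 12 loci, 9 loci were counted, of which 3 were higher and 0 lower, and the median log2 difference was 0.38. The shares over all 12716 loci were 4.44% higher and 3.30% lower. *Fxyd3* had 2.72 FPKM in control and 6.15 FPKM in mutant lungs (1.15). *Fxyd1*, phospholemman, best known as the regulator of the pump in heart and muscle, had 13.7 and 29.4 FPKM (1.10). *Atp1b2* had 4.68 and 8.44 FPKM (0.84). Heart muscle markers were far higher in the mutant pool, as given with the marker lists, and both *Atp1b1* and *Fxyd1* are also expressed in heart. The part of heart RNA in these differences was not tested.

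No counted locus of the water channels was past 1.5-fold. The locus that holds *Aqp1*, the water channel of red cells and of many endothelial and mesothelial cells, had 10.6 FPKM in control and 14.6 FPKM in mutant lungs, a log2 difference of 0.46 (1.38-fold), and 781 loci (6.14%) were as high. This locus is shared with *Fam188b*, lies on chromosome 6 from 55203364 to 55348555, and joins *Aqp1* (55336432 to 55348555 in GENCODE M21) with the upstream gene on the same strand (55203383 to 55320222), so the value of *Aqp1* alone is uncertain. *Aqp5* (chromosome 15 from 99591028 to 99594829, plus strand), the apical water channel of alveolar type 1 and gland cells, had 0.748 FPKM in control and 0.588 FPKM in mutant lungs. The *Aqp1* locus made up 74.2% of the summed FPKM of all aquaporins in control and 83.7% in mutant lungs, and *Aqp5* made up 5.25% and 3.36%.

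Among 10 other aquaporins, *Aqp11* alone reached a mean of 1 FPKM, with 0.904 and 1.16 FPKM in control and mutant lungs (log2 difference 0.33). *Aqp4*, the basolateral water channel of airway epithelium, had 1.48 FPKM in control and 0.472 FPKM in mutant lungs (log2 difference -1.47). *Aqp4* had a mean just under 1 FPKM and was not counted, and its share of all aquaporins was 10.4% and 2.70%. It was named after its values were seen. *Aqp2* and *Aqp12* (2 genes) were listed at 0 in both genotypes.

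Further lists cover the potassium channels that recycle potassium during secretion, the sodium-proton exchangers with their scaffold, and the receptors that control secretion. Of 9 potassium channels, 3 were counted and 1 was higher, *Kcnq1*, with 0.755 FPKM in control and 1.28 FPKM in mutant lungs (log2 difference 0.69), close to the lower limit of 1 FPKM for the mean. *Kcnk1* had 8.03 and 6.66 FPKM, and *Kcnk5* had 5.37 and 4.82 FPKM. Of 6 exchanger and scaffold genes, 4 were counted, and of 5 receptor genes, 2 were counted, with 0 past 1.5-fold in both lists and medians of -0.02 and 0.05. Over all 8 lists, 76 transport genes besides the 9 lay at 75 loci, of which 46 were counted. Of these 46, 2 were lower and 6 were higher, 38 were neither, and the median log2 difference was 0.02. Over all 12716 loci, 3.30% were lower and 4.44% higher, with a median of -0.01. *Cftr* and *Ano1* had log2 differences below that of *Prss8*, the lowest of the 46, and *Atp1b1* had one above that of *Fxyd3*, the highest. This ranking holds for counted loci only. Under a mean of 1 FPKM, *Aqp4* (-1.47) lay below both chloride channels and *Tmprss4* (3.48) lay above *Atp1b1*.

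**Figure D3:**
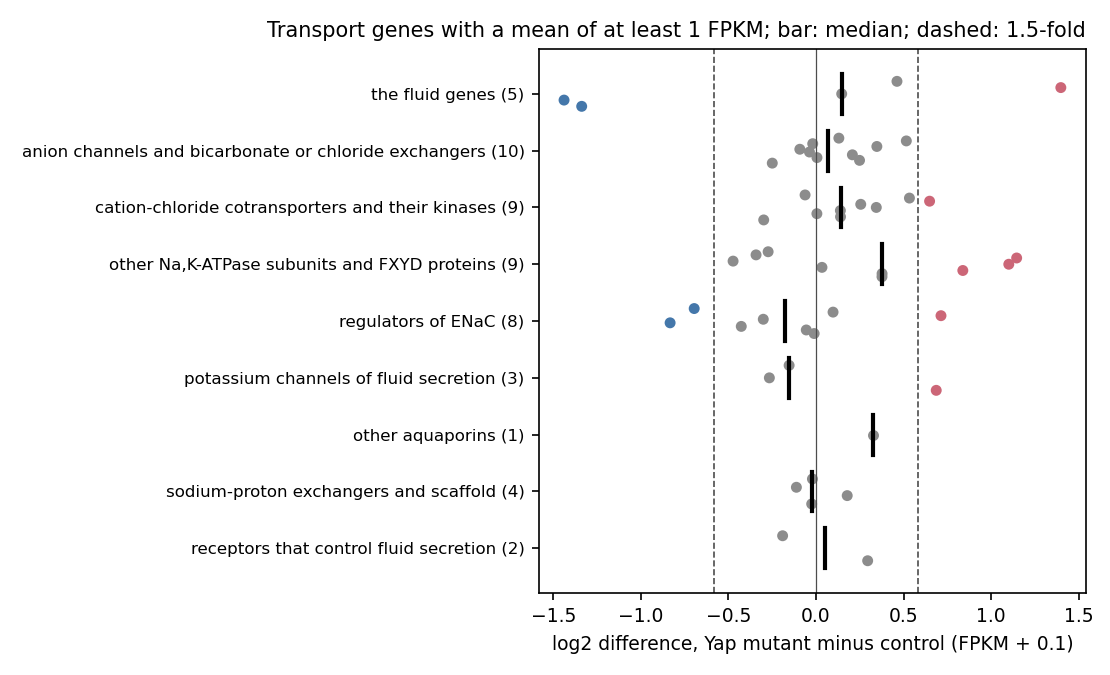
Log2 difference, *Yap* mutant minus control, of each counted transport locus (points), by list, with the number of loci in brackets, the list median as a bar, 1.5-fold as dashed lines, and loci past it in blue (lower) or red (higher). *Cftr* and *Ano1* are the leftmost points (-1.34 and -1.44) and *Atp1b1* the rightmost (1.40), while the 46 other loci lie between -0.83 and 1.15.

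**Figure D4:**
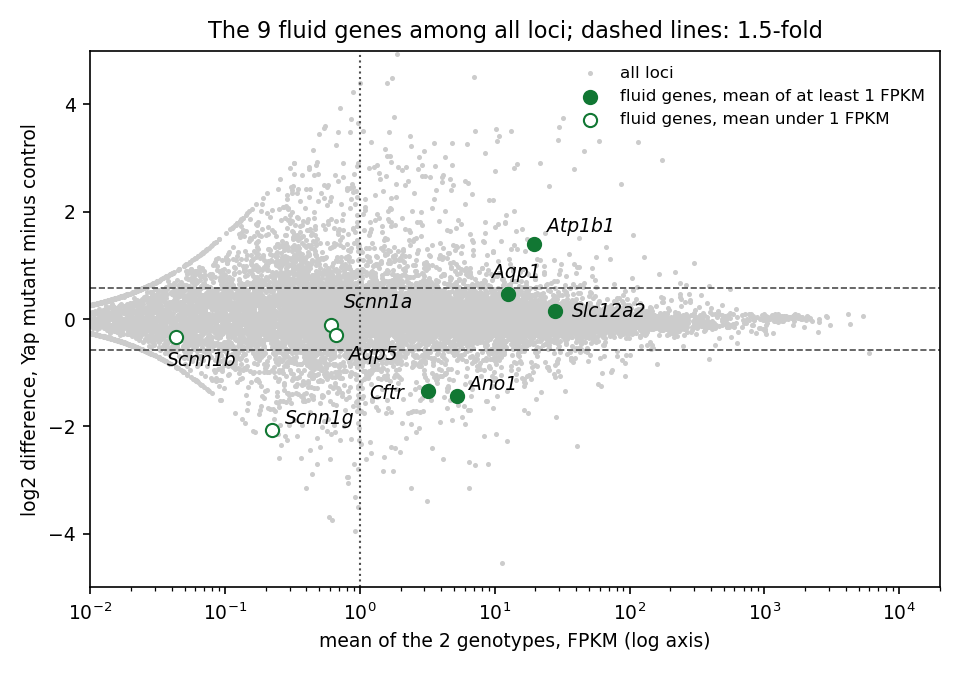
Log2 difference, *Yap* mutant minus control, against the mean of the 2 genotypes in FPKM (log axis, from 0.01 FPKM) for all loci (grey) and the 9 genes (green, open below a mean of 1 FPKM). *Cftr*, *Ano1* and *Atp1b1* lie outside the dashed 1.5-fold lines, and the cloud of loci widens towards low means. The axis ends at 5 in either direction, and 24 loci lie beyond it.

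Whole-lung RNA mixes cell types, and fewer cells of a type and less RNA per cell cannot be told apart in such data. Markers of several cell types differed with the genotype, and their values stand here beside those of the fluid genes. The epithelium, where *Cftr* and *Ano1* are known to act and where *Yap* was deleted, had lower values of most markers. Of 20 epithelial markers, 19 were counted, and 15 of these had a log2 difference below 0. Past 1.5-fold, 9 were lower and 2 higher. The median log2 difference was -0.57, and the summed level of the 20 was 559.7 FPKM in control and 448.3 FPKM in mutant lungs. The lowest were *Esrp2* (-1.17), *Foxa2* (-0.92), *Elf3* (-0.88) and *Foxa1* (-0.81), and the higher genes were *Elf5* (1.81) and *Sftpc* (0.97). *Cldn6*, with 98.0 and 64.7 FPKM in control and mutant lungs, and *Spint2*, with 82.2 and 77.6 FPKM, had the highest means.

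The differences can also be written relative to epithelial markers, whose own log2 differences ran from -1.17 to 1.81, so the result depends on the marker chosen. Relative to the median of the epithelial markers, the log2 difference was -0.77 for *Cftr*, -0.87 for *Ano1* and 1.97 for *Atp1b1*. The level of *Cftr* was 0.0614 times that of *Epcam*, an adhesion protein of epithelial cells, in control lungs and 0.0316 times in mutant lungs. For *Ano1* these ratios were 0.103 and 0.0498. *Epcam* itself had a log2 difference of -0.43, less low than the list median. The part of epithelial cell number in these differences was not tested.

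Single markers of the proximal and distal airway and of alveolar type 1 cells were also past 1.5-fold, as were most markers of smooth muscle. *Sox2*, the transcription factor of the proximal airway and the only one of 6 proximal markers to be counted, had 9.65 FPKM in control and 2.91 FPKM in mutant lungs (log2 difference -1.69). Of 5 distal airway markers, *Etv5* was lower (-1.26) and *Sftpc* and *Id2* (0.84) were higher. Of 5 counted alveolar type 1 markers, *Akap5* (-0.84) and *Rtkn2* (-0.69) were lower, and the other 3 lay within 1.5-fold. Of 7 smooth muscle markers, 5 were lower and 1 was higher. Their median was -1.06, and their summed level was 288.9 FPKM in control and 147.8 FPKM in mutant lungs. The lower ones were led by *Actg2* (-2.37), *Myh11* (-2.15), *Myocd* (-1.25) and *Acta2* (-1.06), and *Des* was higher (1.10). *Ano1* is also expressed in smooth muscle, and the part of smooth muscle in its difference was not tested.

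Ionocytes, the rare airway cells with the highest *CFTR* level in mature airways, had 0 of 6 markers counted. Their defining factor *Foxi1* and the proton pump subunit *Atp6v1b1* were listed at 0 in both genotypes, and the list summed to 0.312 FPKM in control and 1.67 FPKM in mutant lungs. Nearly all of that sum was *Atp6v1c2*, another proton pump subunit, with 0.258 and 1.64 FPKM, which was named after its values were seen. *Cftr* was listed at 4.60 and 1.76 FPKM in the same lungs, and the cell type that its RNA came from was not tested.

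Endothelial and mesothelial markers, beside which *Aqp1* may be read, lay within 1.5-fold. Of 12 endothelial markers 0 were past it, with a median of 0.15 and sums of 349.1 FPKM in control and 372.4 FPKM in mutant lungs. Of 5 counted mesothelial markers 0 were past it, with a median of 0.31 and sums of 112.9 and 126.4 FPKM. The 8 counted erythroid loci had a median of 0.15, and the list summed to 5823 and 6263 FPKM. Among 12 mesenchymal markers, *Foxf1* (83.5 FPKM in control, 41.6 FPKM in mutant) and *Wnt2* (log2 difference -0.77) were lower and *Fgf10* (1.34) was higher, with a median of 0.08. Of 7 neural and glial markers, 3 were lower, led by *Stmn2* (-0.95) and *Tubb3* (-0.80), with a median of -0.52.

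Heart muscle markers had the widest difference among the marker lists. All 9 counted ones were higher in the mutant, the median of their log2 differences was 3.26, and the 11 markers summed to 84.2 FPKM in control and 798.4 FPKM in mutant lungs. The lead was taken by *Nppa* (6.41), *Myh6* (3.75), *Tnnt2* (3.32) and *Myl4* (3.30). The authors' shorter table, of 2395 loci that they list as differing, gives other values than the full table at 25 loci. Among the listed genes it gives other mutant values for *Myl4* (52.6 FPKM in place of 210.3 FPKM) and for *Myl7* (87.8 FPKM in place of 305.9 FPKM), both still above the control values of 21.3 and 39.3 FPKM. With its values the heart markers summed to 422.6 FPKM in mutant lungs, the median was 2.92, all 9 were still higher, and *Myl4* (1.30) was no longer among the leading genes. Which of the tables is right at these loci is unknown. For *Cftr*, *Ano1*, *Atp1b1* and *Aqp1*, the 4 fluid genes that both tables list, the values were the same within 1%. The deleted gene itself, *Yap1*, had 76.1 and 65.6 FPKM. The Y-linked genes *Ddx3y*, *Eif2s3y*, *Kdm5d* and *Uty* reached at most 0.0163 FPKM in the control pool and at least 4.61 FPKM in the mutant pool. Embryonic sex and genotype cannot be told apart in these pooled values, for the fluid genes or any other locus.

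**Figure D5:**
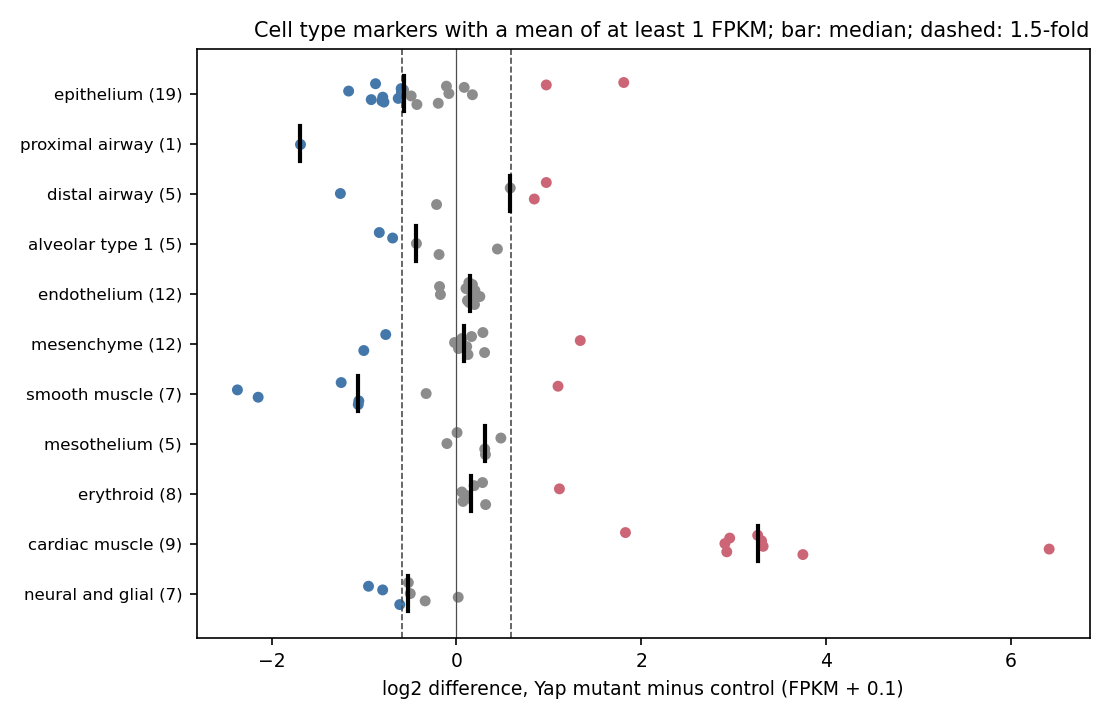
Log2 difference, *Yap* mutant minus control, of the counted cell type markers (points), by list, with the number of loci in brackets, the list median as a bar, 1.5-fold as dashed lines, and loci past it in blue (lower) or red (higher). Epithelial and smooth muscle medians lie at -0.57 and -1.06, the endothelial median at 0.15, and the 9 heart muscle markers lie between 1.83 and 6.41.

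For each fluid gene past 1.5-fold, the genes nearest in log2 difference were taken from all lists. For *Cftr* these were *Etv5*, a transcription factor of the distal tips (gap 0.08), *Myocd*, a coactivator of smooth muscle genes (0.09), and *Esrp2*, an epithelial splicing factor (0.17). For *Ano1* they were *Etv5* (0.18), *Myocd* (0.19) and *Sox2* (0.26). For *Atp1b1* they were *Fgf10*, a growth factor of the mesenchyme (0.06), and *Fxyd3* (0.25). Likeness here is the gap between log2 differences over 2 pooled values, and the nearest genes belong to several cell types.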

How the data were processed

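RNA of whole lungs was extracted by the authors on RNeasy columns, made into stranded paired-end libraries and sequenced on HiSeq instruments. The submitters' processing notes name TopHat, Cuffdiff and mm10, without versions. The deposited tables give 1 FPKM value per genotype over 3 libraries, the unit being inferred from the Cuffdiff layout since the header does not name it. Values per library were not used here. The authors' log2 fold change and unadjusted p-value columns, also in the tables, were not used. No columns (0) belonged to other samples. Locus starts count from 0, and 1 was added.

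The log2 difference was computed as log2(FPKM + 0.1) of mutant minus control, and a locus was counted from a mean of 1 FPKM and a 1.5-fold difference upwards. Genes were named from the 9 fluid genes, on each list the genes past 1.5-fold (at most 4 per direction) and the 2 with the highest mean, and the 3 nearest in log2 difference. A few further genes, such as *Epcam*, were named after their values were seen, and some that the rule would name are left out of the text. The fluid genes and the lists were chosen with earlier results of these data known. Alternatives were pseudocounts of 0.01 and 1 FPKM, no filter, a mean of at least 5 FPKM, a 2-fold threshold, median centring, values relative to the epithelial median and the authors' shorter table. The calling step was run on copies of the control values that carried known fold changes and no noise. That run checks the code and says nothing about replicate error. Promoter windows are from RefSeq (GRCm38.p6), with gene ends from GENCODE M21. Python 3.11.15, numpy 2.4.6, pandas 2.3.3 and matplotlib 3.10.9 were used.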

Additional observations from a re-analysis of the deposited data

How the results depend on the processing

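The calls of *Ano1* and *Atp1b1* were the same under all alternatives, and the log2 difference of *Cftr* stayed past 1.5-fold under all but a mean of at least 5 FPKM, where its value of -1.34 was no longer counted because its mean is below that limit. Relative to the epithelial median, *Aqp1* (1.03) and *Slc12a2* (0.72) were also counted as higher, as were 23 other transport loci, with 0 lower. This setting subtracts the median of -0.57 from every locus, so a locus just above 0 already passes 1.5-fold. In the main setting 6133 of all 12716 loci and 25 of the 46 other transport loci lay above 0. The share of all loci counted under this setting was not computed, so these calls say nothing particular about transport genes. With no filter on low values, *Scnn1g* (-2.07) was counted as lower, and 1016 loci were lower and 1553 higher over all loci. At a mean of at least 5 FPKM, 182 loci were lower and 217 higher, with 3 other transport loci higher. At 2-fold, 163 loci were lower and 274 higher, with 2 other transport loci higher and 0 lower. None of *Cftr*, *Ano1* and *Atp1b1* turned direction. Relative to the epithelial median, *Aqp5* (0.27), *Scnn1a* (0.46) and *Scnn1b* (0.24), which were not counted, turned from below to above 0, as did the medians of alveolar type 1 (0.14), neural and glial (0.05), ENaC regulator (0.39), potassium channel (0.42) and sodium-proton exchanger (0.55) lists. The potassium channel median also turned with no filter (0.15). Of the list medians recomputed under the alternatives, 34 moved by more than 0.1 on the log2 scale, 19 of them under the epithelial scaling, which shifts every list alike, and 78 did not. The values of the shorter table for heart markers were an alternative added after the data were seen. No paired analysis was possible because the tables hold 1 value per genotype, and for the same reason leaving out each replicate was not run. Neither the spread between libraries nor their depth is known, so no difference was set against replicate error.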

Other observations

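Loci near the 3 fluid genes past 1.5-fold were read within 500 kb of each locus, leaving out those whose mean was under 1 FPKM. The shares over all 12716 loci were 3.30% lower and 4.44% higher. *Cftr* had 4 such neighbours, of which 2 were lower. *Asz1*, a germ cell gene 61.3 kb away, had 1.77 FPKM in control and 0.273 FPKM in mutant lungs (log2 difference -2.32), and *Wnt2*, a signal of the lung mesenchyme 139.7 kb away, had 46.5 and 27.3 FPKM (-0.77). *St7* (-0.16) and *Cttnbp2* (-0.11), at 227.4 kb and 43.7 kb, lay within 1.5-fold. *Ano1* had 6 such neighbours, of which *Ccnd1*, the cyclin D1 gene, was lower with 98.9 and 61.3 FPKM (-0.69) and *1810010D01Rik* was higher (1.20). *Atp1b1* had 8 such neighbours, of which 0 were past 1.5-fold. These genes were named after their values were seen.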
